A study of Mus musculus with 10 samples.

Results

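The 10 genes described here act on collagen after it is translated, and their levels were measured in knee cartilage of mice with and without the microRNA miR-324. They are Serpinh1, P4ha1, P4ha2, P4hb, Plod1, Plod2, Plod3, Crtap, Lox and Loxl2. They were taken by symbol, and all 10 were present among the 35705 genes of the table and among the 13841 genes that averaged 1 TPM or more and were tested. TPM, the unit of the values, is a length-corrected share of all RNA in a library, so levels of different genes can be compared. Medial knee cartilage caps were dissected from 5 individual wild-type mice and 5 individual Mir324-null mice, frozen directly and sequenced as 1 library per mouse. The wild-type mice are the controls. The mice received no treatment. Age, sex, litter and the way the null allele was made are not given in the sources used here. Titles number the mice WT_1 to WT_5 and KO_1 to KO_5, written below as wild-type 1 to 5 and null 1 to 5.

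Fibrillar collagens are made as procollagen chains in the endoplasmic reticulum, where they are hydroxylated before 3 chains wind into a helix. Prolyl 4-hydroxylase, an enzyme of P4ha1 or P4ha2 catalytic subunits with P4hb, makes the hydroxyprolines that keep the helix stable at body temperature, and lysyl hydroxylases (Plod1, Plod2, Plod3) prepare lysines for glycosylation and crosslinking. Serpinh1 encodes HSP47, a chaperone that holds the folded helix, and Crtap is the non-catalytic partner of the prolyl 3-hydroxylase complex. Outside the cell, the copper enzymes of the lysyl oxidase family, among them Lox and Loxl2, oxidise lysines and hydroxylysines so that fibrils crosslink, which gives cartilage and bone collagen its strength.

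None of the 10 genes passed the threshold of 0.05 between the genotypes after adjustment over all genes. Of the 10, 9 had a lower mean log2 level in the null mice, Lox, P4ha2 and Crtap at an unadjusted p under 0.05, and Plod3 had nearly equal means. Over all genes tested, 60.0% had a lower mean log2 level and 7.30% were lower at an unadjusted limma p under 0.05. Against the wild-type mean the TPM of null mice differed by -40.6% for Lox, -43.9% for P4ha2 and -29.7% for Crtap. Wild-type 1 was the highest of the 10 mice in 8 of the genes. The log2 differences of all 9 lower genes were smaller without it. They went from -0.75 to -0.68 for Lox, from -0.65 to -0.35 for P4ha2 and from -0.49 to -0.39 for Crtap.

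The libraries held markers of bone and blood cells beside those of cartilage. Chondrocyte genes were present, with Col2a1 at 91.4 ± 31.9 TPM (SD, n = 5) and Acan at 146 ± 83.4 TPM in wild-type mice, but 2 of the 9 chondrocyte markers, Matn3 and Col9a1, averaged under 1 TPM. Bglap, the osteocalcin gene of osteoblasts, stood at 3577 ± 1430 TPM (its reads may be split with the near-identical Bglap2), and haemoglobin genes took 11.2 to 19.7% of the TPM in wild-type and 15.8 to 26.1% in null libraries. The 8 osteoblast and osteocyte markers summed to 4113 to 10891 TPM (median 6948) in wild-type and 2533 to 4772 TPM (median 4088) in null mice. Most of these sums came from Bglap and Bglap2, with null means of 1596 and 1525 TPM and a wild-type mean of 3272 TPM for Bglap2. All 8 markers, with this pair counted as separate genes, had a lower mean log2 level in the null mice. An unadjusted limma p under 0.05 was found for 7 of them, and for 4 when wild-type 1 was left out. All 5 osteoclast markers above 1 TPM, 4 of 4 hypertrophic chondrocyte markers and 6 of the 7 chondrocyte markers tested also had a lower mean log2 level, whereas all 5 erythroid markers (Hba-a1 turned lower after quantile normalization) and 5 of 6 fibroblast markers had a higher one, none of them past the adjusted threshold. Summed chondrocyte markers, most of them Prg4, ran from 1865 to 6054 TPM in the controls and 1608 to 2855 TPM in null mice. Adipocyte (4 of 4), endothelial (4 of 4) and B lineage (5 of 5) markers had lower mean log2 levels too, with 3, 2 and 2 of them at an unadjusted p under 0.05. After median ratio scaling, and after rescaling without haemoglobin, these counts were 2, 2 and 0. Without wild-type 1 they were 2, 1 and 1. In TPM as deposited, 60.0% of all genes tested had a lower mean log2 level, and 7.30% were lower at an unadjusted limma p under 0.05. After median ratio scaling 6592 of 13841 genes had a lower mean, and 860 were lower at that p. Without haemoglobin 6081 of 14218 had a lower mean, and 591 were lower at that p. Without wild-type 1, 7461 of 13841 had a lower mean, and 1147 had that p in either direction. The 5 neutrophil markers had a median log2 difference of -0.075 and a smallest limma p of 0.551, and Elane and Mpo among them turned above 0 under each other scaling. Of 5 skeletal muscle markers 1 passed the filter, with a log2 difference of 0.40. No marker of any list was at 0 in all libraries. The part of these cell mixtures in the results below was not tested, and in whole tissue fewer cells of a type and less RNA per cell cannot be told apart. Wild-type 1 also stood apart over all genes, at 54.8 on the first principal component where the other 9 mice lay between -30.1 and 12.1.

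miR-324 is processed into a pair of mature strands, shown here because the mutant is null for their gene; the capitals mark the seed, bases 2 to 8, which pairs with target RNAs (RefSeq, GRCm38.p6, chromosome 11, plus strand, 70012060 to 70012082 and 70012095 to 70012114).
miR-324-5p: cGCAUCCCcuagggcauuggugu
miR-324-3p: cCACUGCCccaggugcugcu
A match to the 5p seed (GGGATGC) lay in the longest annotated 3′ UTR of 1070 of 12592 genes tested (8.50%) and a match to the 3p seed (GGCAGTG) in 1939 (15.4%). Among the 10 collagen genes each seed had a match in 1. Plod1 held the 5p match at base 292 of a 966-base 3′ UTR (GRCm38 chr4:147910421-147910427, minus strand), and Serpinh1 held the 3p match at base 118 of a 744-base 3′ UTR (chr7:99345996-99346002, minus strand). Both are printed as 29 bases of the RNA's sense, with the match in capitals.
Plod1: cagacttcgacggagctgcctGGGATGCt
Serpinh1: attccacgggtggggggggttGGCAGTGc
The level of miR-324 itself was not analysed here, so the genotypes are those of the labels. A match is a description of letters and not a measured site. The Serpinh1 3′ UTR is that of Serpinh1-202, a transcript with under 5% of the gene's TPM. The other 8 genes held neither match in the 3′ UTR searched. Whether miR-324 acts on any of the 10 genes was not tested.

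In wild-type mice the 10 genes ran from 452 TPM for P4hb to 9.76 TPM for Loxl2. By the mean over all 10 mice, P4hb lay above 98.1% of all genes tested, Serpinh1 above 95.8% and Crtap above 86.5%, whereas Loxl2 lay above 38.0%. In the wild-type means P4hb, which also serves as protein disulfide isomerase on many secreted proteins, was 2.09-fold above Serpinh1. Serpinh1 was 2.98-fold above Crtap in those means, and each order held in 5 of 5 mice of both genotypes. Crtap exceeded Lox in all 10 mice as well. From Lox through Plod3, Plod2, P4ha1 and P4ha2 the neighbours were closer: Lox exceeded Plod3 in 3 of 5 wild-type and 0 of 5 null mice, and Plod3 exceeded Plod2 in 3 of 5 wild-type and 5 of 5 null mice. Plod1, at 18.8 TPM, exceeded Loxl2 in every mouse of both genotypes.

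**Figure D1:**
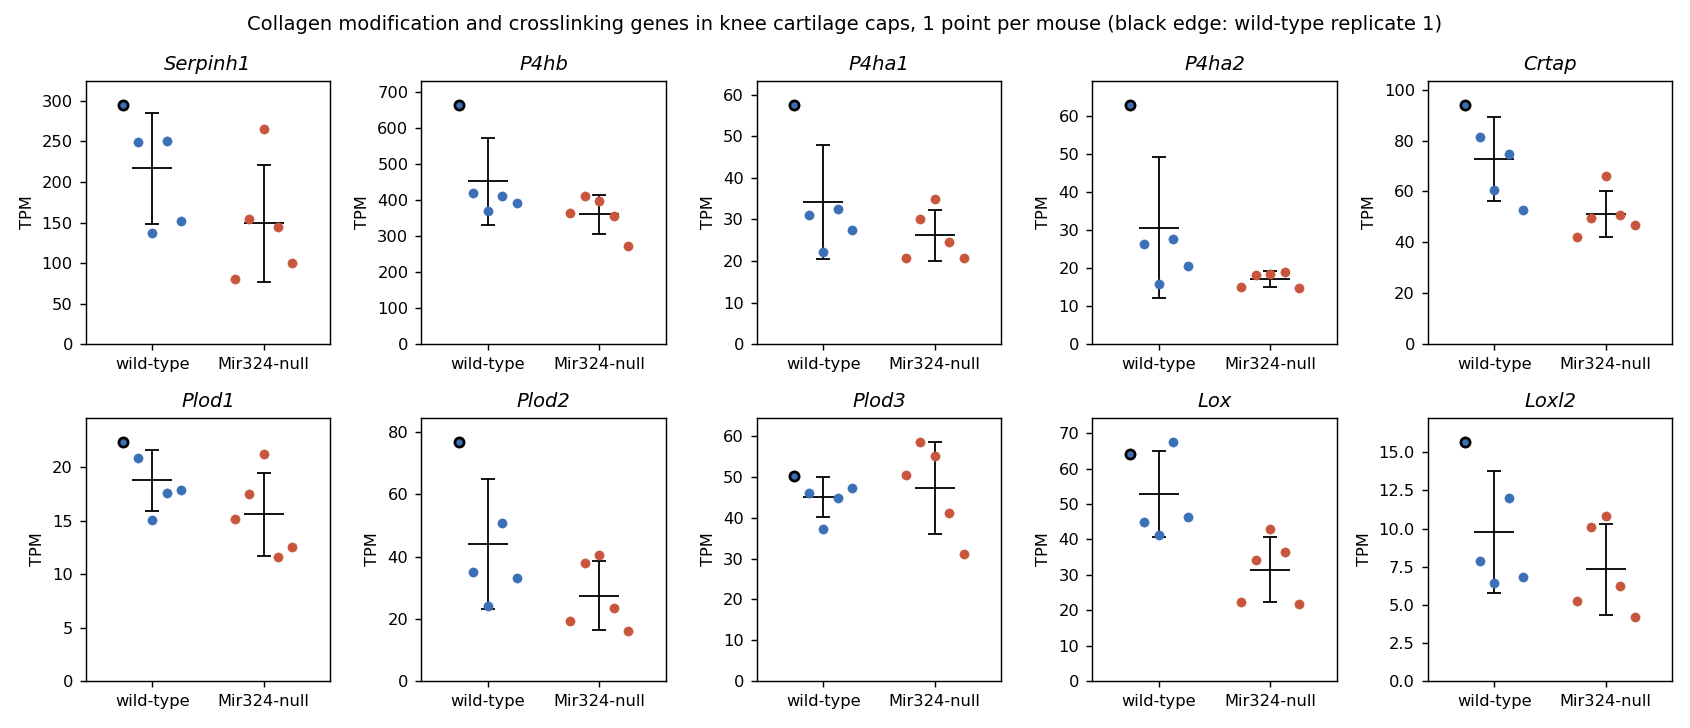
TPM (vertical axes, from 0) of each of the 10 genes in 5 wild-type (blue) and 5 Mir324-null (red) mice, 1 point per mouse in order of replicate number, with the mean and SD in black; wild-type 1 has a black edge. Wild-type 1 is the top point of 8 panels, and the genotypes overlap in all 10.

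The chaperone Serpinh1 (ENSMUSG00000070436, GRCm38 chr7:99345376-99353239, minus strand) measured 295, 249, 137, 251 and 152 TPM in wild-type 1 to 5, and 80.9, 154, 265, 145 and 99.8 TPM in null 1 to 5. Wild-type 1, 2 and 4 stood at 249 TPM or more, but so did null 3, and the groups overlapped over most of their range. The means were 217 ± 69.0 and 149 ± 71.8 TPM (SD, n = 5 each). The log2 difference, here and below the null minus the wild-type mean of log2(TPM + 1), was -0.60 (SE 0.309, limma p = 0.0778, adjusted p = 0.491, exact permutation p = 0.190), and leaving out each mouse in turn moved it from -0.83 (without null 3, unadjusted limma p = 0.00925) to -0.41 (without null 1, unadjusted limma p = 0.193).

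Prolyl 4-hydroxylase was represented by its shared subunit and both abundant catalytic subunits. P4hb (ENSMUSG00000025130, chr11:120560298-120573253, minus strand) measured 665, 421, 370, 413 and 393 TPM in the wild-type mice and 364, 413, 399, 356 and 272 TPM in the null mice. Wild-type 1 stood alone at the top, and the other 9 mice lay between 272 and 421 TPM. The log2 difference of -0.31 (SE 0.163, limma p = 0.0867, adjusted p = 0.508, exact permutation p = 0.0952) was -0.16 without wild-type 1.

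P4ha1 (ENSMUSG00000019916, chr10:59323296-59373304, plus strand), the main catalytic subunit in most tissues, measured 57.5, 31.0, 22.1, 32.6 and 27.4 TPM in wild-type and 20.7, 30.0, 34.9, 24.6 and 20.6 TPM in null mice. Apart from wild-type 1 the groups covered nearly the same range. Its log2 difference was -0.32 (SE 0.231, limma p = 0.187, adjusted p = 0.648, exact permutation p = 0.286) over all mice and -0.12 without wild-type 1.

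P4ha2 (ENSMUSG00000018906, chr11:54100095-54131665, plus strand), the isoenzyme subunit abundant in chondrocytes and bone cells, measured 62.9, 26.4, 15.9, 27.6 and 20.5 TPM in wild-type and 15.1, 18.3, 18.5, 19.1 and 14.9 TPM in null mice. All 5 null mice lay below the wild-type mean of 30.6 TPM, and 4 of the 5 wild-type mice lay above every null mouse. The coefficient of variation was 11.7% in the null mice against 60.7% in the wild-type mice. Much of the wild-type spread came from wild-type 1 at 62.9 TPM, since the others lay between 15.9 and 27.6 TPM. The log2 difference was -0.65 (SE 0.284, 95% interval -1.27 to -0.024, limma p = 0.0429, adjusted p = 0.425, exact permutation p = 0.0556). Without wild-type 1 it was -0.35, with an unadjusted limma p of 0.0525. Over all 10 leave-one-out fits that p ran from 0.00963 (without wild-type 3) to 0.0829 (without null 5).

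Crtap (ENSMUSG00000032431, chr9:114375134-114390675, minus strand) measured 94.0, 81.5, 60.7, 74.9 and 52.6 TPM in wild-type and 42.3, 49.5, 66.0, 50.8 and 47.0 TPM in null mice. Null 1, 2, 4 and 5 lay below every wild-type mouse, and null 3 lay within the wild-type range. The means were 72.7 ± 16.5 and 51.1 ± 8.94 TPM, a log2 difference of -0.49 (SE 0.163, 95% interval -0.84 to -0.13, limma p = 0.0116, adjusted p = 0.333, exact permutation p = 0.0397). Much of this signal was not on the coding transcript: a 615-base transcript annotated as a retained intron held 53.2% of the gene's TPM in wild-type and 49.6% in null mice. With coding transcripts alone the log2 difference was -0.38 and its unadjusted limma p was 0.0543.

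The 3 lysyl hydroxylases gave unlike values. Plod1 (ENSMUSG00000019055, chr4:147909753-147936767, minus strand), which acts on lysines of the helix, measured 22.4, 20.9, 15.1, 17.6 and 17.9 TPM in wild-type and 15.2, 17.5, 21.2, 11.6 and 12.5 TPM in null mice. The groups overlapped widely, with null 3 above 4 of the wild-type mice, and the log2 difference was -0.27 (SE 0.165, limma p = 0.128, adjusted p = 0.582, exact permutation p = 0.175). Without null 4 it was -0.18.

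Plod2 (ENSMUSG00000032374, chr9:92542223-92608428, plus strand), the lysyl hydroxylase of the non-helical ends from which crosslinks start, measured 77.0, 35.0, 24.1, 50.9 and 33.0 TPM in wild-type and 19.3, 38.0, 40.4, 23.4 and 16.2 TPM in null mice. Wild-type 1 and 4 were the highest and null 1, 4 and 5 the lowest, while null 2 and 3 lay above wild-type 2, 3 and 5. The log2 difference was -0.64 (SE 0.321, limma p = 0.0713, adjusted p = 0.480, exact permutation p = 0.135) and -0.41 without wild-type 1.

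Plod3 (ENSMUSG00000004846, chr5:136987019-136996648, plus strand), which also adds sugars to hydroxylysine, was the exception. It measured 50.2, 46.0, 37.3, 44.8 and 47.3 TPM in wild-type and 50.6, 58.7, 55.1, 41.2 and 31.1 TPM in null mice, so that null mice were both the highest and the lowest. Its log2 difference was 0.04 (95% interval -0.31 to 0.39, limma p = 0.809, adjusted p = 0.963, exact permutation p = 0.825), and the sign turned without wild-type 3, null 2 or null 3. The gene overlaps 1003 bases of Znhit1 on the opposite strand, which stood at 88.6 TPM in wild-type mice, and whether quantification used strand is not given in the sources used here, so its level is uncertain.

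Within this family, Plod3 held a larger mean share in the null mice. Plod3 made up 33.5, 45.1, 48.7, 39.6 and 48.2% of the summed TPM of the 3 genes in wild-type mice and 59.5, 51.4, 47.2, 54.1 and 52.0% in null mice. All but null 3 were above every wild-type mouse, and the means were 43.0 ± 6.43% and 52.8 ± 4.49%. The exact permutation p was 0.0238, and 0.148 after adjustment over the 7 shares computed, which were chosen after the levels had been seen. Plod2 held 39.2 ± 8.61% against 29.7 ± 4.85% (p = 0.0635 by the exact permutation test, adjusted 0.148), and Plod1 held 17.8 ± 2.47% against 17.5 ± 2.33%. P4ha2 likewise held 45.7 ± 4.04% of the summed P4ha1 and P4ha2 TPM in wild-type and 40.1 ± 3.70% in null mice, and all 5 null mice were below the mean of the controls (exact permutation p = 0.0556, adjusted 0.148).

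**Figure D2:**
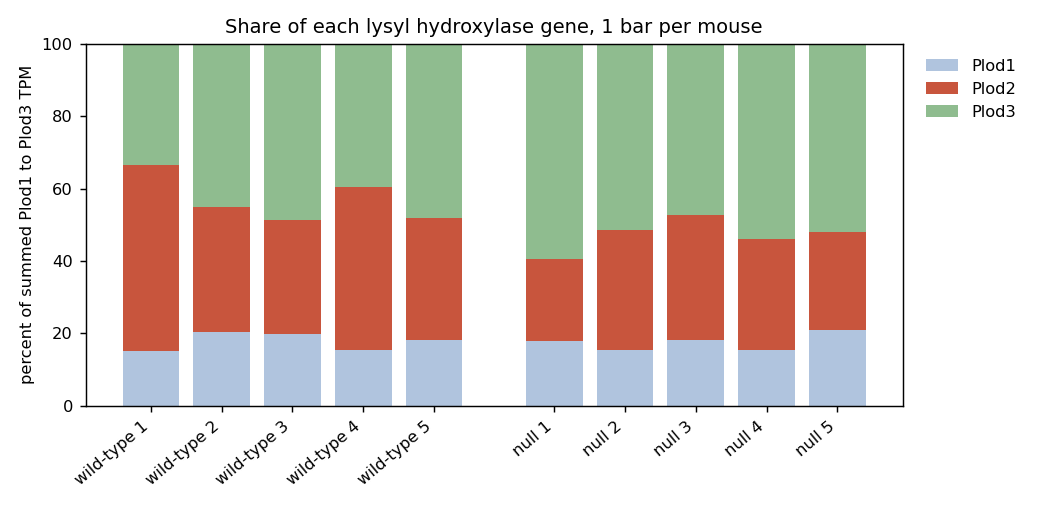
Percent of the summed Plod1, Plod2 and Plod3 TPM held by each gene (vertical axis), 1 stacked bar per mouse, 5 wild-type at left and 5 null at right. The Plod3 part spans 33.5 to 48.7% in wild-type and 47.2 to 59.5% in null mice.

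Lox (ENSMUSG00000024529), the founding lysyl oxidase, had the smallest p of the 10 genes. It measured 64.1, 45.0, 41.3, 67.6 and 46.2 TPM in wild-type and 22.3, 34.3, 42.8, 36.3 and 21.6 TPM in null mice. Null 3 alone reached into the wild-type range, above wild-type 3, and the other 4 null mice lay below every wild-type mouse. The means were 52.9 ± 12.1 and 31.4 ± 9.24 TPM, and the log2 difference was -0.75 (SE 0.208, 95% interval -1.21 to -0.30, limma p = 0.00372, adjusted p = 0.292, exact permutation p = 0.0159). For that test 0.00794 is the smallest that 252 splits of 10 mice allow. Leaving out each mouse in turn gave -0.87 to -0.64.

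Loxl2 (ENSMUSG00000034205, chr14:69609068-69695834, plus strand), which also acts on basement membrane collagen, measured 15.7, 7.86, 6.45, 12.0 and 6.79 TPM in wild-type and 5.26, 10.1, 10.8, 6.23 and 4.19 TPM in null mice. Wild-type 1 and 4 lay above every null mouse and null 1, 4 and 5 below every wild-type mouse, while null 2 and 3 lay above wild-type 2, 3 and 5. The log2 difference was -0.37 (SE 0.282, limma p = 0.214, adjusted p = 0.679, exact permutation p = 0.286) and was -0.19 without wild-type 1 and -0.22 without null 5.

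**Figure D3:**
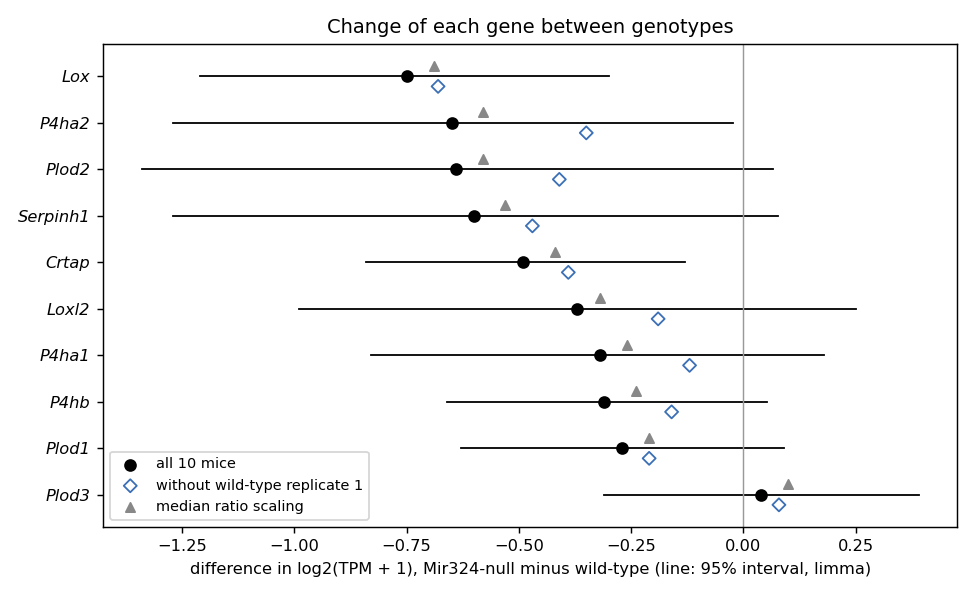
Difference in mean log2(TPM + 1), null minus wild-type (horizontal axis), for each gene, with the 95% interval from limma (line), the value without wild-type 1 (open diamond) and the value after median ratio scaling (triangle). Intervals of Lox, P4ha2 and Crtap lie below 0, and leaving out wild-type 1 moves P4ha1, P4hb and Loxl2 closest to 0 among the 9 lower genes, to -0.12, -0.16 and -0.19.

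Counted together, 9 of 10 genes had a log2 difference below 0, where 60.0% of all genes tested did, and the median of the 10 was -0.43 against -0.045 over all genes. Of the 10, 3 were lower at an unadjusted limma p under 0.05, against 7.30% of all genes, and 0 were higher, against 4.28%. In 5 genes, P4ha2, P4hb, Plod2, Crtap and Lox, all 5 null mice lay below the wild-type mean, as in 16.3% of all genes. In 0 of 10 did all 5 null mice lie below the lowest wild-type mouse, as in 1.06% of all genes. No gene of the 13841 passed an adjusted p of 0.05 in limma (0%, with 1603 at an unadjusted p under 0.05) or in the exact permutation test (0, with 1461 unadjusted). The direction of the 10 did not depend on scaling: 9 were lower and 1 higher after median ratio scaling, quantile normalization and rescaling without haemoglobin, with medians of -0.37, -0.40 and -0.35. Over all genes the scaling did matter, since 63.1% of genes with an unadjusted p under 0.05 were lower in TPM as deposited, 48.5% after median ratio scaling and 32.5% without haemoglobin. Without wild-type 1 the median of the 10 was -0.28. In that fit 2 of the 10 had an unadjusted limma p under 0.05, as did 1147 of all 13841 genes. Without wild-type 3 or without null 3, 5 of the 10 did, beside 1887 and 1927 of all genes. The count over all genes thus moved as well.

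The 10 genes varied together between mice. Wild-type 1 was highest in all but Plod3 and Lox, and null 5 was lowest in 7 genes, P4ha1, P4ha2, P4hb, Plod2, Plod3, Lox and Loxl2. Wild-type 4 and null 3 each ranked among the top 2 mice in 4 genes, with mean ranks of 3.20 and 3.40 (1 is highest). The mean rank was 1.40 for wild-type 1 and 9.70 for null 5. Summed, the genes took 729 to 1404 TPM in wild-type mice (median 964) and 540 to 954 TPM in null mice (median 714). Against the mean standardized pattern of all 10 genes, to which each gene itself contributes, Pearson's r over the 10 mice was 0.985 for Plod2, 0.963 for P4ha1 and 0.956 for Loxl2, and lowest for Plod3 at 0.582. Col1a1 followed the pattern at 0.832 and Col1a2 at 0.823. The 3 genes outside the set with the closest pattern were Vasn (0.991), Sema3d (0.991) and Maged1 (0.987). These correlations share the libraries and their TPM scale and are given as descriptions.

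Serpinh1, Plod2, P4ha1 and P4ha2 were the genes whose main coding transcripts (1000 bases or longer and at least 5% of the gene) differed by an internal exon shorter than 100 bases. The coding exons are printed in capitals, with 9 lower-case bases of the neighbouring exons on either side. They are shown because, of the exon choices in these 4 genes, that of P4ha2 differed most between the genotypes. Its adjusted exact permutation p was 0.0635. All the exons printed are on the plus strand of GRCm38. The Plod2 exon (exon 14 of 20 of Plod2-203, chr9:92601985-92602047, 63 bases, 21 codons) marks the long form of the enzyme, known for its action on the non-helical ends. The P4ha1 exons (chr10:59354340-59354410 in P4ha1-201 and chr10:59355350-59355420 in P4ha1-202 and P4ha1-203) are 71 bases each, are used in place of each other, and match at 42 of 71 bases. The P4ha2 exons (chr11:54126346-54126411, 66 bases, in P4ha2-201, and chr11:54126238-54126297, 60 bases, in P4ha2-202 and P4ha2-215) are likewise used in place of each other, as exon 13 of 16 in P4ha2-201 and P4ha2-202.
Plod2-203, 63-base exon: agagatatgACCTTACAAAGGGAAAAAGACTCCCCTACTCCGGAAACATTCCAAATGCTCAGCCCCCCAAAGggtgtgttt
P4ha1-201, 71-base exon: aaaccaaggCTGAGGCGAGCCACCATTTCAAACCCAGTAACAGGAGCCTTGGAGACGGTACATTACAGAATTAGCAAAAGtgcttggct
P4ha1-202, 71-base exon: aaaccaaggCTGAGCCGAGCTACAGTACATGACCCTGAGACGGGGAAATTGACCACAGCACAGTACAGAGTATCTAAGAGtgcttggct
P4ha2-201, 66-base exon: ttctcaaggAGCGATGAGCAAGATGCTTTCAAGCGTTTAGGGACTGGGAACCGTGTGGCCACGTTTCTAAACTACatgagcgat
P4ha2-202, 60-base exon: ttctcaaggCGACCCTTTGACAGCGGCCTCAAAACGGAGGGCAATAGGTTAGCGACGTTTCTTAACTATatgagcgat

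The 60-base exon of P4ha2 was in 40.9, 35.8, 39.9, 47.3 and 41.1% of the TPM of the 3 transcripts in wild-type mice and in 49.9, 51.4, 57.0, 47.2 and 56.0% in null mice. The groups met only at wild-type 4 and null 4, and the other null mice lay above every wild-type mouse. The means were 41.0 ± 4.10% and 52.3 ± 4.13%, a difference of 11.3 percentage points (exact permutation p = 0.0159, adjusted 0.0635 over the 4 genes). The adjusted p was 0.0317 without wild-type 4, and the choice of exons was made after transcript values had been seen. Tested as single transcripts, 0 of 23 had an adjusted p under 0.05 in the exact permutation test, with 2 unadjusted. Both had the smallest adjusted p, 0.365. P4ha2-201 held 50.9 ± 3.82% of its gene in wild-type and 41.8 ± 4.07% in null mice (exact permutation p = 0.0159). Plod1-201 held 91.8 ± 3.02% and 95.7 ± 1.45% of its gene (exact permutation p = 0.0317).

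The Plod2 exon was in 42.3, 70.3, 72.3, 52.8 and 69.6% of the TPM of Plod2-201 and Plod2-203 in wild-type mice and in 32.2, 53.9, 71.5, 57.2 and 46.9% in null mice. Both groups spread widely, and the mice with the most Plod2, wild-type 1 and 4, had the lowest wild-type shares. The means of 61.4 ± 13.3% and 52.4 ± 14.4% overlapped in their spread (exact permutation p = 0.333). The exon of P4ha1-201 was used in 22.5 ± 1.70% and 21.8 ± 1.53% of coding TPM (exact permutation p = 0.556), and a non-coding 44-base exon of Serpinh1 in 62.1 ± 4.63% and 61.7 ± 6.19% (exact permutation p = 0.881).

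**Figure D4:**
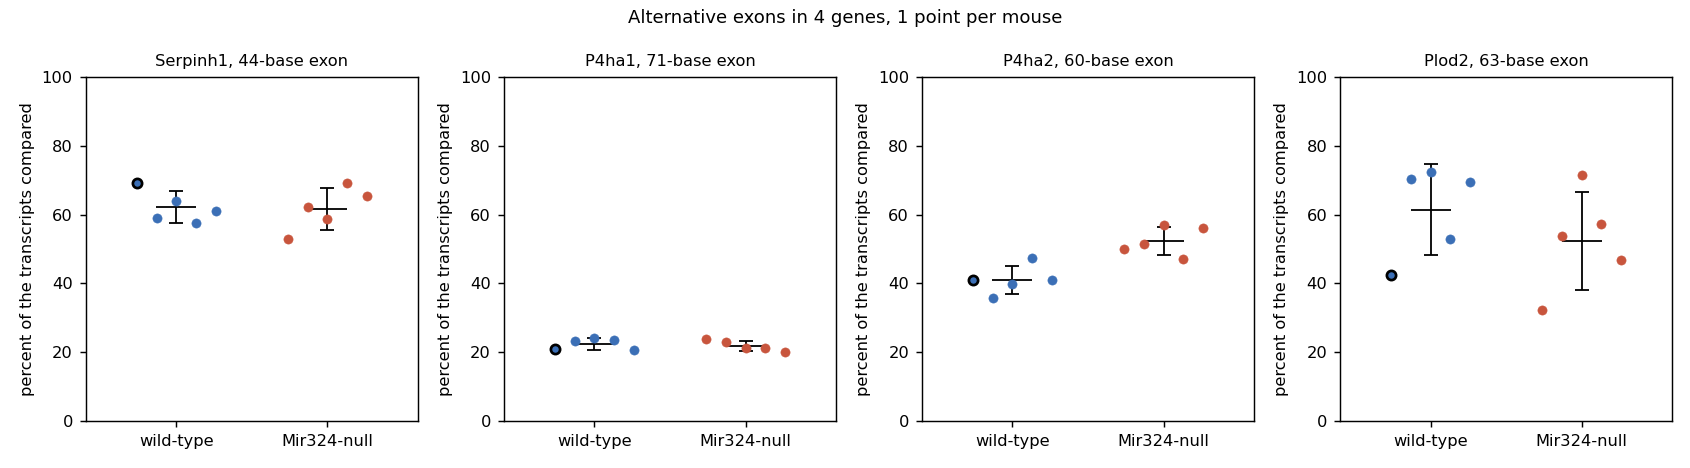
Percent of the transcripts compared that hold the named exon, for P4ha1 that of P4ha1-201 (vertical axes, 0 to 100), 1 point per mouse, with mean and SD, for Serpinh1, P4ha1, P4ha2 and Plod2 in wild-type (blue) and null (red) mice. P4ha2 values lie at 35.8 to 47.3% in wild-type and 47.2 to 57.0% in null mice, while the other 3 genes overlap over most of their range.

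Other transcripts showed how much of a gene's TPM can lie outside its full coding form. A 414-base processed transcript held 25.7% of P4hb TPM in wild-type and 21.2% in null mice, and full-length P4hb-201 stood at 226 and 204 TPM. A retained-intron transcript held 33.5 and 31.9% of Plod3 TPM. With coding transcripts alone the log2 difference was -0.22 for P4hb, -0.68 for P4ha2, -0.69 for Plod2 and -0.75 for Lox.

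The collagens that the products of these genes act on mostly had lower means as well, none past the adjusted threshold. Col1a1, a chain of the type I collagen of bone, stood at 1522 ± 401 TPM in the controls and 829 ± 339 TPM in null mice, a log2 difference of -0.94 (SE 0.272, limma p = 0.00503, adjusted p = 0.308, exact permutation p = 0.0238). Col1a2, its partner chain, had -0.93, and the cartilage chains Col2a1, Col11a1 and Col11a2 had -0.65, -0.95 and -0.68. Of 8 substrate collagens 7 had a lower mean, where 60.0% of all genes tested did. An unadjusted limma p under 0.05 was found for 6, all lower, against 7.30% of all genes, and for 0 after adjustment. Col3a1, a chain of soft connective tissue, was the exception at 60.8 ± 62.3 and 88.5 ± 59.8 TPM (log2 difference 0.89, limma p = 0.226, exact permutation p = 0.310). Per type I collagen message, each of the 10 genes was higher in null mice. Lox stood at 1 per 29.7 in wild-type and 1 per 26.6 in null mice, and Serpinh1 at 1 per 7.43 and 1 per 5.89. This ratio was higher in null mice for 98.9% of the 13484 genes with a value in every library. The median log2 difference was 0.88, where Lox had 0.16 and Plod3 0.98. Nothing is read from the direction of the ratio.

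Other genes of the pathway, from lists that hold no member, were counted in the same fit. In that fit 60.0% of all genes tested had a lower mean log2 level and 7.30% were lower at an unadjusted limma p under 0.05. Of the 5 prolyl 3-hydroxylation genes all 5 had a lower mean, with P3h4, the non-catalytic partner of P3h3, at 31.5 ± 15.1 and 15.1 ± 4.24 TPM (log2 difference -0.93, limma p = 0.00722, adjusted p = 0.319, exact permutation p = 0.0317), and P3h1, the catalytic partner of Crtap, at -0.65 (limma p = 0.0268, exact permutation p = 0.0556). Of 8 other endoplasmic reticulum factors for collagen tested all 8 had a lower mean and 4 an unadjusted p under 0.05: the galactosyltransferase Colgalt2 (-0.73), the transcription factor Creb3l1 (-0.64), and the prolyl isomerases Fkbp7 (-0.60) and Fkbp10 (-0.59). Colgalt1 turned above 0 without haemoglobin and without wild-type 1, and the ninth gene, P4ha3, was under 1 TPM. Of 5 genes of extracellular processing tested all 5 had a lower mean, with the N-propeptidase Adamts2 at -0.53 (limma p = 0.00985, exact permutation p = 0.0397) and the C-propeptidase Bmp1 at -0.61 (limma p = 0.0473, exact permutation p = 0.103). Loxl1, Loxl3 and Loxl4 had -0.37, -0.51 and -0.59, and Loxl4 had an unadjusted limma p of 0.0371 (exact permutation p = 0.0873).

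The genes for exporting collagen and the general chaperones were nearer to 0. Of 6 export genes 5 had a lower mean, with a median of -0.16, and Mia2 among them turned above 0 after median ratio scaling and without haemoglobin. Klhl12, an adaptor for large transport vesicles, was higher at 20.2 ± 0.878 against 16.9 ± 2.41 TPM (log2 difference 0.25, limma p = 0.0329, adjusted p = 0.388, exact permutation p = 0.0397). The 8 general chaperones of the endoplasmic reticulum had a median of -0.033 and 0 unadjusted p under 0.05, and the disulfide isomerase Pdia6 had the smallest p, 0.218 in limma, at -0.26. Their direction turned with scaling, with 6 of 8 lower in TPM as deposited and 2 of 8 after median ratio scaling. P4ha1, P4ha2, Plod2, Lox and Loxl2 are known targets of the hypoxia factor HIF, so 10 other hypoxia targets were counted. All 10 had a lower mean, where 60.0% of all genes tested did, with a median of -0.40. An unadjusted limma p under 0.05 was found for 2 of them, where 7.30% of all genes were lower at that p. These were the mitophagy gene Bnip3 (-0.74, limma p = 0.00619, exact permutation p = 0.0159) and the peptide hormone gene Adm (-0.67, limma p = 0.0224, exact permutation p = 0.0317). A part of HIF in these differences was not tested. Pdk1, at -0.012, turned above 0 under each other scaling. Without wild-type 1, Vegfa and Pdk1 turned above 0, and the median was -0.21 for the hypoxia targets, -0.54 for the substrate collagens, -0.21 for prolyl 3-hydroxylation, -0.44 for the other factors, -0.16 for export, -0.14 for extracellular processing and -0.31 for the other lysyl oxidases. In all these lists 0 genes had an adjusted p under 0.05.

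**Figure D5:**
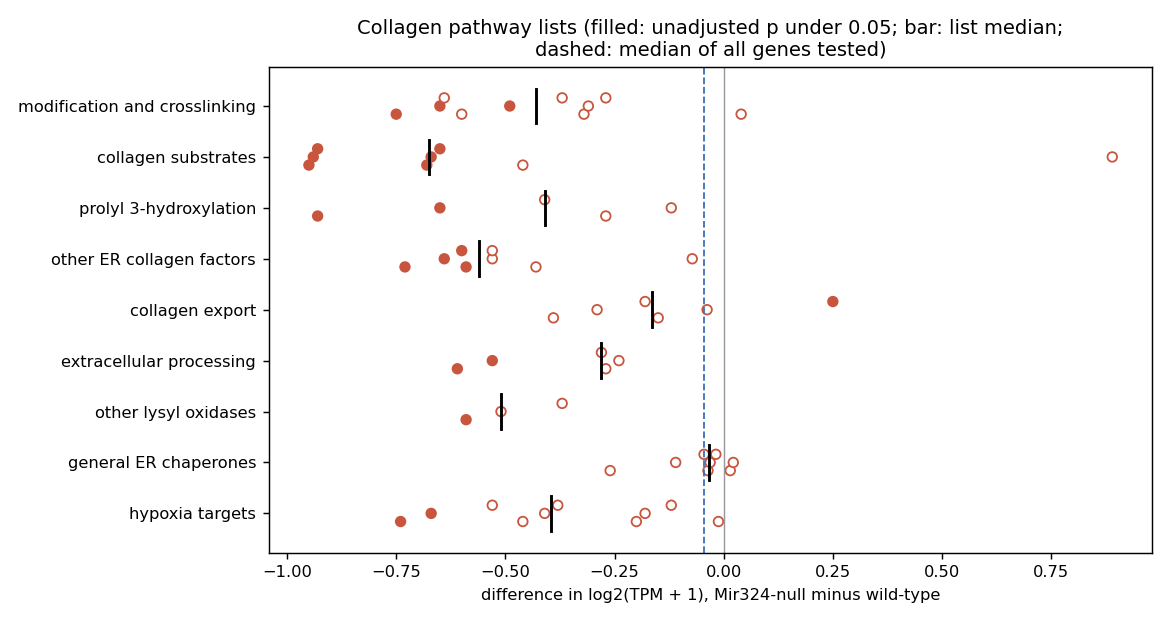
Difference in mean log2(TPM + 1), null minus wild-type (horizontal axis), of each gene tested, by list (rows); filled points have an unadjusted limma p under 0.05, bars are list medians and the dashed line is the median of all genes, -0.045. The general chaperones lie around that line with a median of -0.033, and the 10 modification and crosslinking genes have a median of -0.43.

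Promoter sequences (RefSeq, GRCm38.p6, 250 bases before to 50 after the start) were matched for 7 of the 10 genes, all but Plod2, Lox and Loxl2. ACGTG, the core of the hypoxia response element read on both strands, was in 5 of 7 (P4ha1, P4ha2, P4hb, Plod3 and Serpinh1), where 19.6% of 32851 promoters hold it. GGGCGG, the GC box, was in 6 of 7 against 35.7%, and CCAAT in 2 of 7 against 37.4%. These are letter matches in a fixed window, and binding of HIF or any other factor was not tested. The base composition of the promoters, 53.3 to 70.3% G and C, was not matched.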

How the data were processed

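RNA from the medial knee cartilage caps of 5 wild-type and 5 Mir324-null mice was prepared with a low-input kit, per the labels' protocols. The deposited table gives TPM per transcript and library. The submitters' processing notes name kallisto, DESeq2 and the build GRCh38, a human build, although the samples are mouse; versions and the transcript index are not given in the sources used here. TPM keep no read depth, so the depth behind each value is unknown.

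Of 116912 transcripts, 115440 matched GENCODE M21 (GRCm38) after the version was dropped (115427 of them in a newer version), and the 1472 others held 0.275 to 0.356% of TPM. TPM were summed per gene. The 13841 genes averaging 1 TPM or more were tested as log2(TPM + 1) with limma 3.58.1 in R 4.3.3 (trend, two-sided, Benjamini-Hochberg over all genes tested, threshold 0.05), and with the two-sided exact permutation test over 252 splits, also adjusted over all genes. Fold differences on this scale understate those of low genes. Transcripts with at least 5% of their gene were compared by the exact permutation test. Both tests were checked on simulated data. Nothing in the labels says that the libraries differ by batch. The p-values set the difference between genotype means against the variation between individual mice.

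The members and lists were chosen with earlier results of these data known. Genes named are all 10 members, from each list of pathway genes those with an unadjusted p under 0.05 (at most the 5 with the smallest p, otherwise the 1 with the smallest), Col1a1, Col1a2, Col3a1 and Col2a1, and the 3 genes with the closest pattern over mice. Other list genes named (Bglap, Bglap2, Acan, Matn3, Col9a1, Prg4, Elane, Mpo, Hba-a1, Colgalt1, P4ha3, Loxl1, Loxl3, Mia2, Vegfa, Pdk1 and Znhit1) were chosen after their values were seen, as were the family shares and exon choices. Alternatives were other pseudocounts (0.1 and 10 TPM), filters (5 TPM or none), scalings, limma without trend, coding transcripts only, a replicate block and leaving out each mouse.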

Additional observations from a re-analysis of the deposited data

Results flagged for a closer look

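In groups of 5 mice, a value was marked where its gap to the nearest mouse exceeded 0.71 of the group's range, Dixon's 95% limit. Of 88 groups tested 4 were marked, and chance marks about 1 in 20. P4hb in wild-type 1 stood at 9.38 on the log2(TPM + 1) scale, where the next wild-type mouse had 8.72. In the same mouse the 414-base P4hb-202 held 36.6% of P4hb TPM, with the next at 24.9%. The retained-intron Plod3-206 held 26.3% of Plod3 TPM in null 1, with the next lowest at 32.8%. Loxl2-201 held 87.9% of Loxl2 TPM in wild-type 3, with the next lowest at 96.9%.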

How the results depend on the processing

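Of 200 values for the 10 genes under 20 alternatives, 197 kept their direction and their side of the adjusted threshold, and 3 turned in sign, all Plod3, whose leave-one-out range was -0.045 to 0.18. The smallest adjusted limma p over the alternatives was 0.161 for Lox, 0.183 for Crtap and 0.209 for P4ha2. Leaving out each mouse gave 2 to 5 of the 10 genes with an unadjusted limma p under 0.05 (5 without wild-type 3 or null 3), and 1106 to 1927 of all genes. It gave 0 to 1 gene with an adjusted p under 0.05, the 1 without wild-type 3, wild-type 4 or null 1. The counts of listed genes with an unadjusted p under 0.05 were small and moved with single mice: 3 to 7 for collagen substrates (3 without wild-type 4, null 1 or null 5), 1 to 3 for prolyl 3-hydroxylation (1 without wild-type 1, null 1 or null 5), 2 to 6 for other endoplasmic reticulum factors (2 without wild-type 1, 2 or 4, or null 1 or 5), 0 to 3 for export (3 without wild-type 3 or null 3, 2 without wild-type 5, and 0 without each other mouse), 1 to 2 for extracellular processing (2 without wild-type 3 or 5 or null 3), 0 to 3 for the other lysyl oxidases (3 without wild-type 3, 0 without wild-type 1 or 4 or null 1, 4 or 5), 0 to 1 for general chaperones (1 without wild-type 1 or null 2) and 1 to 5 for hypoxia targets (5 without wild-type 3, 1 without null 4). Without haemoglobin the counts were 3 collagen substrates, 2 other factors, 1 for extracellular processing and 0 other lysyl oxidases. Extracellular processing also gave 1 with a pseudocount of 10 TPM, no filter and no trend, the other lysyl oxidases 0 with no filter, export 2 after quantile normalization, and hypoxia targets 1 with a filter of 5 TPM. The causes were not tested.

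Same-numbered mice did not deviate together, with correlations of -0.107, -0.00660, -0.144, 0.0564 and 0.0207 for numbers 1 to 5, and 0 of 5 correlated best with their own number. With the replicate number as a block, 1168 genes and 3 of the 10 had an unadjusted p under 0.05, with 1 gene of extracellular processing and 0 other lysyl oxidases.

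Of the transcript shares, 0 of 23 had an adjusted p under 0.05 in any fit. Leave-one-out differences in percentage points crossed 0 for Serpinh1-201 (-1.21 to 2.35), Serpinh1-203 (-2.06 to 2.31), Plod3-201 (-5.29 to 1.27), P4ha2-202 (-0.327 to 8.63), Loxl2-201 (-1.82 to 1.20) and P4hb-203 (-0.857 to 0.228), for the 44-base exon of Serpinh1 (-2.37 to 1.68) and for the Plod1 share of its family (-1.13 to 0.401, and 0.482 with coding transcripts only). The 60-base exon of P4ha2 was 10.0 to 12.9 points higher in null mice in every such fit, with an adjusted p of 0.0317 to 0.0952. Alternatives for family shares and exon choices were added after the data had been seen. Without read counts, how far low values such as those of Loxl2 are limited by depth is unknown.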
